A study of Mus musculus with 12 samples.

Results

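The genes described here encode the secreted and membrane side of Wnt signalling: the Wnt ligands, their Frizzled receptors and LRP co-receptors, the R-spondins, the secreted antagonists, and the target gene Axin2. They were taken from the deposited gene table by symbol, and 46 of its 37750 rows matched, each a row with a single gene name. The list holds 19 Wnt genes, 10 Frizzled genes, Lrp5 and Lrp6, 4 R-spondin genes, 10 antagonists (Sfrp1, Sfrp2, Sfrp4, Sfrp5, Frzb, Wif1 and Dkk1 to Dkk4) and Axin2.

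Wnt proteins leave the cell bound to the carrier Wls and are received by a Frizzled protein together with LRP5 or LRP6, which spares beta-catenin from destruction and lets it act with TCF and LEF factors on target genes. R-spondins raise the response by keeping Frizzled and LRP receptors at the cell surface, SFRP proteins, FRZB and WIF1 bind the ligands, and the classical DKK proteins block LRP5 and LRP6. Wnt5a and Wnt11 are best known for signals that do not use beta-catenin, among them those through ROR2 and the planar cell polarity proteins. In adipose tissue, beta-catenin signalling holds back the maturation of fat cell precursors, with Wnt10b as the ligand most studied for this, and Sfrp5 is a product of adipocytes.

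RNA came from Ad/NICD mice on a 129 x C57BL/6 background, which carry the intracellular domain of Notch1, the active form of that receptor. In the published model of this name the domain is switched on by Cre under the adiponectin promoter, which is active in adipocytes, and both groups carry it. White adipose tissue (WAT, 4 libraries) was taken from animals 3 weeks old, and liposarcoma (LPS, 8 libraries) from animals 9, 10, 11 or 12 months old. The effects of age and of tissue cannot be told apart, and no tissue without the transgene was analysed here. The libraries were labelled biological replicates, so p-values measure the spread between them. The fit and the adjusted p-values below came from limma across all rows tested, at a threshold of 0.05, and a difference is in log2(FPKM + 1), LPS minus WAT, ± SE.

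The table gives FPKM, fragments scaled to transcript length and library size. No fragment totals were used, so the depth was read from the low values: about 1 fragment on a transcript of 2 kb was worth between 0.0181 FPKM (WAT 1, the deepest library) and 0.0470 FPKM (LPS 1, the shallowest). Adipocyte markers (6 of 6 found) summed to 3529 to 4441 FPKM in WAT, against 4.30 to 115 FPKM in LPS. Pericyte and smooth muscle markers (7 of 7) summed to 202 to 225 FPKM in WAT, against 3413 to 6724 FPKM in LPS. Rgs5 alone gave 2068 to 4326 FPKM in LPS. Rgs5, Pdgfrb, Kcnj8, Abcc9 and Cspg4 were higher in every tumour than in any WAT library. Acta2 was below its WAT range of 39.5 to 48.3 FPKM in LPS 3 and LPS 7 (7.67 and 23.9 FPKM) and inside it in LPS 8. Myh11 was inside its WAT range in LPS 5 (17.5 FPKM). Markers of fibroblasts and adipose progenitors (6 of 6 found, with Pdgfra left out of the sum because its row joins 2 names) summed to 842 to 1460 FPKM in WAT, against 15.7 to 345 FPKM in LPS, with LPS 5 the highest tumour. Among the adipocyte markers, Pparg went its own way: it stood at 70.4 to 133.8 FPKM in WAT and at 82.2, 94.2 and 66.5 FPKM in LPS 1, 3 and 7, where it made most of the sum, while Lep did not exceed 0.0658 FPKM in any tumour and was at 0 in LPS 3 and LPS 4. In such bulk tissue, fewer cells of a type and less RNA per cell cannot be told apart, and the part these markers have in the differences below was not tested.

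Sequences upstream of the start, from RefSeq windows on GRCm38.p6, are given for 3 of the genes lower in every tumour than in any WAT library. The loci of Wnt11 (chr7:98835112-98855195, + strand), Axin2 (chr11:108920349-108950783, + strand) and Sfrp5 (chr19:42197971-42202252, - strand) begin at the base after each window. The 250 bases lie at chr7:98834862-98835111 for Wnt11, at chr11:108920099-108920348 for Axin2 and at chr19:42202253-42202502 for Sfrp5, and each is written 5′ to 3′ on the strand of its gene. Capitals mark the core TCF/LEF motif CTTTGAT on either strand, here read from the other strand.
Wnt11: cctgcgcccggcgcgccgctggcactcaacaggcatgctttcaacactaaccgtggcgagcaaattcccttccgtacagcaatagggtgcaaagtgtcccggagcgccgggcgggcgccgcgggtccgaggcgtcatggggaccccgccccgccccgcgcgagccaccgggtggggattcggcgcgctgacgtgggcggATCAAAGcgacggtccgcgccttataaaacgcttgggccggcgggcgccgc
Axin2: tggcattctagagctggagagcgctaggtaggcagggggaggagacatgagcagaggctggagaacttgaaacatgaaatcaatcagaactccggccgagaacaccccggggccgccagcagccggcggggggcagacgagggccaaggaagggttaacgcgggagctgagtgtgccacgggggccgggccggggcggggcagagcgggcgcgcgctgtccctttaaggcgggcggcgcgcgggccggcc
Sfrp5: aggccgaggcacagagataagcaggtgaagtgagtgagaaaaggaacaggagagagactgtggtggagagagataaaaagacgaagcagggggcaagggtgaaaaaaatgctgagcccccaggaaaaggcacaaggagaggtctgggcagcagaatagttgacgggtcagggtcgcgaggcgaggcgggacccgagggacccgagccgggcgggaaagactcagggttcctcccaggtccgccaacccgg
In the Wnt11 window shown the motif begins 51 bases before the start, and the letters did not occur in the windows of Axin2 and Sfrp5. Nor did they occur in a further RefSeq window of Wnt11, at chr7:98838595-98838844. RefSeq windows were at hand for 30 of the 46 genes, 33 windows in all. The TCF/LEF motif occurred in 2 of these 33 windows (6.06%), the other in front of Wnt5b, against 3.21% of all 32851 windows of this length. The core RBPJ motif TGGGAA, read by the DNA-binding partner of the Notch domain, occurred on either strand in 4 of the 33 windows (12.1%), those of Frzb, Wnt3, Wnt5b and Wnt9a, against 21.6% of all windows. These matches describe letters only.

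Of the 46 genes, 21 reached 1 FPKM in at least 4 libraries and were tested. Of these, 9 were called lower in LPS (Wnt11, Wnt2, Wnt2b, Sfrp2, Sfrp4, Sfrp5, Dkk2, Fzd1 and Axin2), where 27.0% of all 14821 rows tested were called lower. Dkk3 alone was called higher, against 18.9% of all rows, and 11 genes were not called. The median difference was -0.53 over the 21 genes and -0.05 over all rows tested. Wnt2, Wnt11 and Sfrp5 passed the filter through WAT alone, as no LPS library reached 1 FPKM, so a difference in them was built in. Wnt2b, Sfrp4, Dkk2, Axin2 and Sfrp1, the last not called, reached 1 FPKM in 4 WAT libraries and in only 2, 1, 2, 3 and 3 tumours. They too passed only with WAT, so the filter favoured lower levels in LPS. Dkk3 reached it in 3 WAT libraries and 8 tumours, so it passed through LPS. Without any filter, all 46 genes could be tested: 18 were called lower, against 19.4% of 27793 rows, and 1 was called higher, against 9.52%. Over the 46 genes, every LPS library lay below every WAT library for 15, among them 9 Wnt genes, against 14.3% of the same 27793 rows. No gene had all LPS libraries above all WAT libraries, against 6.69%.

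**Figure D1:**
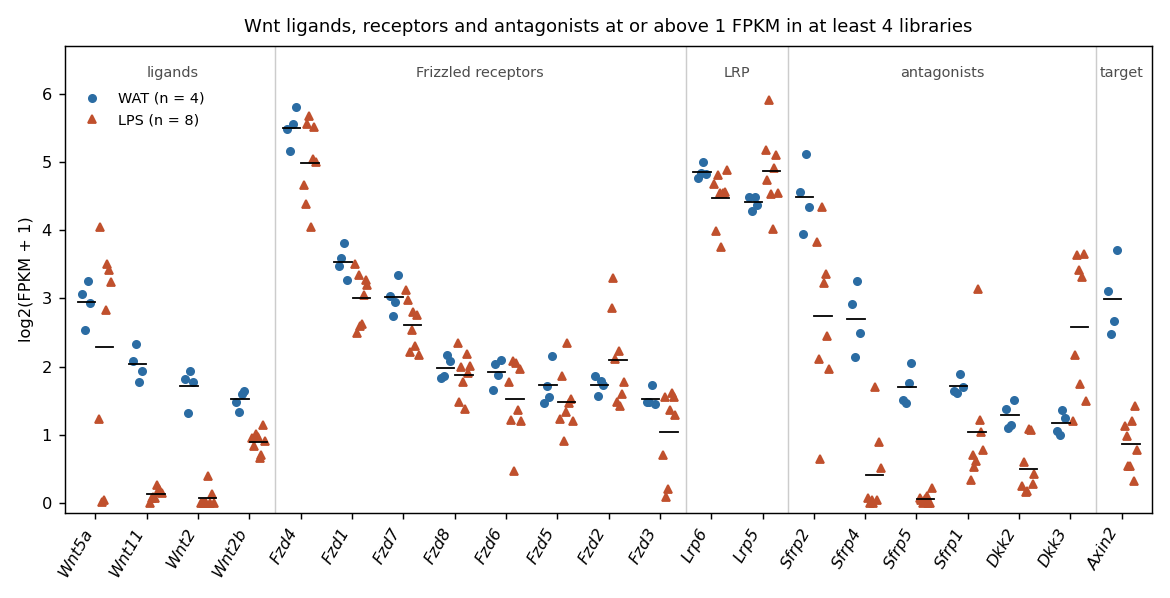
Level of each of the 21 tested genes in log2(FPKM + 1), grouped by role, with circles for the 4 WAT libraries, triangles for the 8 LPS libraries and a line at each group's mean. Receptors mostly overlap between the groups, whereas Wnt11, Wnt2, Wnt2b, Sfrp4, Sfrp5, Dkk2 and Axin2 have every tumour below every WAT library.

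Among the ligands, the Wnt genes that adipose tissue expressed were low in the tumours, with Wnt5a as the exception in most of them. Wnt11 stood at 3.23, 4.03, 2.43 and 2.84 FPKM in WAT 1 to 4 and at 0 to 0.204 FPKM in LPS, with a median of 0.0814 FPKM. Every tumour lay far below every WAT library, and a mean of 3.13 ± 0.681 FPKM (SD, n = 4) faced one of 0.0921 ± 0.0655 FPKM (SD, n = 8). The difference was -1.91 ± 0.12 (adjusted p = 4.54e-08), and the filter had built a difference in. Wnt2 (chr6:17988940-18030585, - strand), a ligand that acts through beta-catenin, stood at 2.52, 1.5, 2.84 and 2.43 FPKM in WAT and was listed at 0 in 6 of the 8 tumours, with 0.0905 FPKM in LPS 7 and 0.320 FPKM in LPS 5. The groups did not overlap, and the difference was -1.65 ± 0.13 (adjusted p = 5.35e-07). For Wnt2 too, the filter had built a difference in.

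Wnt2b (chr3:104944805-104961709, - strand), a close relative of Wnt2, was lower by less and was found in every tumour. Its levels were 1.80, 1.52, 2.04 and 2.13 FPKM in WAT, and in LPS they ran from 0.572 to 1.2 FPKM with a median of 0.904 FPKM. The groups did not overlap, and the difference was -0.62 ± 0.13 (adjusted p = 0.00121). Wnt10b (chr15:98771753-98778150, - strand) missed the filter, with 1.39, 1.04, 1.69 and 0.966 FPKM in WAT. It was listed at 0 in 5 tumours and reached 0.0571 FPKM at most, about the worth of 1 or 2 fragments, so every tumour lay below every WAT library here too.

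Wnt5a (chr14:28504750-28527447, + strand) was the ligand with the most transcript in all 4 WAT libraries, at 7.38, 4.82, 8.54 and 6.64 FPKM. In LPS 1 to 8 it stood at 1.35, 15.5, 0.00939, 0.0242, 6.15, 10.4, 9.69 and 8.49 FPKM. LPS 3 and LPS 4 were thus near 0 and LPS 1 was low, while LPS 2, 6 and 7 lay above every WAT library. The mean difference was -0.66 ± 0.75 and was not called (adjusted p = 0.501). Tumours from animals of the same age differed: the 10-month tumours LPS 3 and LPS 8 had 0.00939 and 8.49 FPKM, and the 11-month tumours LPS 1, LPS 5 and LPS 7 had 1.35, 6.15 and 9.69 FPKM.

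Wnt3 (chr11:103774150-103817957, + strand), another ligand that acts through beta-catenin, was above 1 FPKM in 3 tumours and in no WAT library. It stood at 0.0727, 0.0231, 0.0614 and 0.0934 FPKM in WAT, at 2.90, 2.62 and 2.75 FPKM in LPS 2, 7 and 8, and at 0.0392 to 0.445 FPKM in the other 5 tumours. It missed the filter, as only those 3 libraries reached 1 FPKM. Its neighbour Wnt9b, 24328 bases away, was also highest in LPS 2 and LPS 7, at 0.150 and 0.203 FPKM, but stood at 0.0383 FPKM in LPS 8.

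The remaining 13 Wnt genes were below 1 FPKM in WAT and, but for Wnt5b, in LPS. Wnt4, Wnt6, Wnt8b, Wnt10a and Wnt16 had every tumour below every WAT library, with WAT levels of 0.420 to 0.557, 0.566 to 0.898, 0.114 to 0.209, 0.123 to 0.488 and 0.223 to 0.315 FPKM. Wnt6 and Wnt10a are neighbours, 6196 bases apart, and in LPS they reached 0.104 and 0.0483 FPKM at most. Wnt9a stood at 0.603 to 0.961 FPKM in WAT, against 0.118 to 0.764 FPKM in LPS, with LPS 5 the only tumour inside the WAT range. Wnt5b ran from 0.306 to 0.768 FPKM in WAT and from 0.503 to 1.31 FPKM in LPS, so the groups overlapped. Wnt1, Wnt3a, Wnt7a, Wnt7b and Wnt8a stayed at or below 0.0902 FPKM in all 12 libraries, a range in which 1 to a few fragments set the value.

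The 19 Wnt genes together gave 16.1 to 21.03 FPKM in WAT, against 2.69 to 21.1 FPKM in LPS. Wnt5a made 29.9 to 40.6% of that sum in WAT and 59.8 to 82.3% in LPS 2, 5, 6, 7 and 8. It was the largest part in 10 of the 12 libraries, the others being LPS 3, led by Wnt5b with 40.6% of 2.90 FPKM, and LPS 4, led by Wnt2b with 35.2% of 2.69 FPKM. WAT thus held a mixture of 4 or 5 ligands above 1 FPKM per library, whereas the tumours held 0 to 3.

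**Figure D2:**
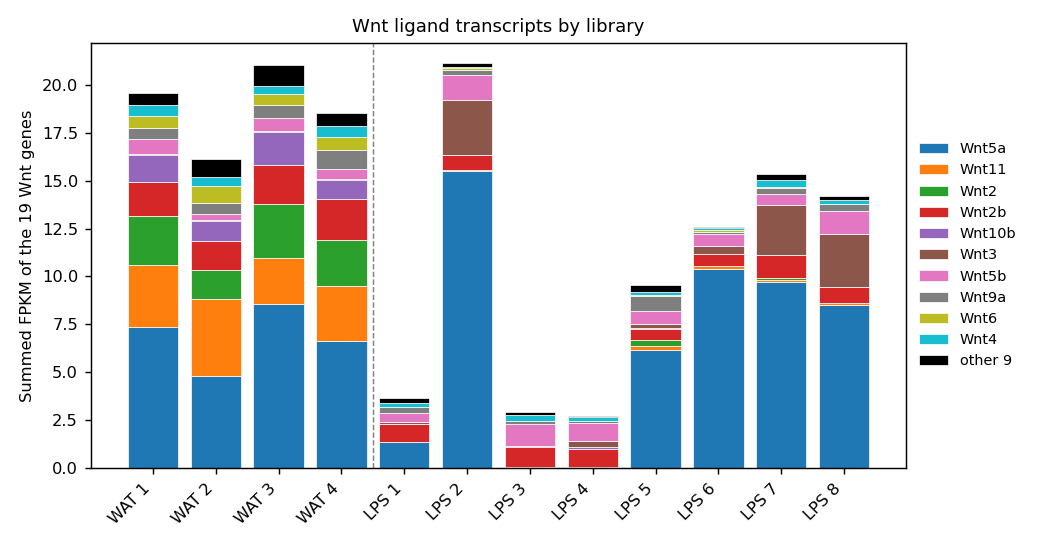
Summed FPKM of the 19 Wnt genes in each library, stacked by gene, with the 9 lowest genes joined. WAT bars reach 16.1 to 21.03 FPKM from several ligands, whereas LPS 2, 5, 6, 7 and 8 are mostly Wnt5a and LPS 1, 3 and 4 stay at 2.69 to 3.66 FPKM.

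Receptor transcripts were found in both groups, and most were not called. Of 10 Frizzled genes 8 were tested, 7 of them not called. Fzd4 (chr7:89404366-89410110, + strand), the receptor that norrin also uses in blood vessels, was the most abundant Frizzled transcript in all 12 libraries. It stood at 43.8, 34.7, 46.0 and 55.2 FPKM in WAT, and in LPS it ran from 15.6 to 49.9 FPKM with a median of 31.6 FPKM. Its share of the Frizzled sum was 54.1 to 62.6% in WAT and 37.9 to 75.4% in LPS, the ends of the latter being LPS 5 and LPS 4. The groups overlapped, and the difference of -0.51 ± 0.29 was not called (adjusted p = 0.163).

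Fzd1 (chr5:4753842-4758216, - strand) was the only Frizzled gene called, and only just. Its levels were 10.2, 11.0, 13.1 and 8.69 FPKM in WAT, against 4.61 to 10.4 FPKM in LPS, with a median of 7.74 FPKM, so the groups overlapped. The difference was -0.53 ± 0.20 (adjusted p = 0.0493), and it was called in only 6 of 28 other settings. It was not called without any one WAT library, with adjusted p of 0.0507 (WAT 4) to 0.152 (WAT 3), or without LPS 2, 4, 5, 6 or 8, with adjusted p of 0.0525 (LPS 8) to 0.0779 (LPS 4).

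Fzd7, a receptor of several beta-catenin ligands, stood at 5.72 to 9.15 FPKM in WAT, against 3.51 to 7.75 FPKM in LPS, with a difference of -0.41 ± 0.20 (adjusted p = 0.110). Fzd2, which binds Wnt5a, was the one tested Frizzled gene with a higher mean in LPS, at 1.96 to 2.65 FPKM in WAT, against 1.67 to 8.82 FPKM in LPS. LPS 1 and LPS 2 were its highest tumours, at 6.27 and 8.82 FPKM, and its difference of 0.36 ± 0.33 was not called (adjusted p = 0.391). Fzd5, Fzd6 and Fzd8 had differences of -0.24, -0.40 and -0.10, none called, and under quantile normalization those of Fzd5 and Fzd8 changed sign, to 0.021 and 0.11. Of the untested receptors, Fzd10 stood at 0.284 to 0.766 FPKM in WAT and was listed at 0 in 6 tumours, with 0.0964 FPKM at most. Fzd9 stood below 1 FPKM in every library but LPS 7, where it was 3.19 FPKM.

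Fzd3 (chr14:65201026-65262463, - strand), a receptor with a part in planar cell polarity, was the member whose levels among the tumours were most like those of Wnt5a. It stood at 1.78, 1.78, 2.30 and 1.74 FPKM in WAT and at 0.620, 1.94, 0.0616, 0.156, 1.58, 2.04, 1.94 and 1.45 FPKM in LPS 1 to 8. The same 3 tumours, LPS 1, 3 and 4, were low for both genes, and the difference between the groups was not called (-0.48 ± 0.30, adjusted p = 0.209). Pearson's r of log2(FPKM + 1) between Wnt5a and Fzd3 was 0.986 over the 8 tumours (Spearman's rho 0.952), and 0.949 without LPS 3 and LPS 4. LPS 1, also low for both genes, stayed in the latter value. That value therefore cannot show how far the likeness rests on the low tumours. Ror2, the co-receptor of Wnt5a, was near 0 in LPS 1 and LPS 3 (0.0525 and 0.0649 FPKM) but not in LPS 4 (3.64 FPKM), and was highest in LPS 2 (12.9 FPKM), as Wnt5a was. Ror2 was not called (0.69 ± 0.61, adjusted p = 0.378).

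**Figure D3:**
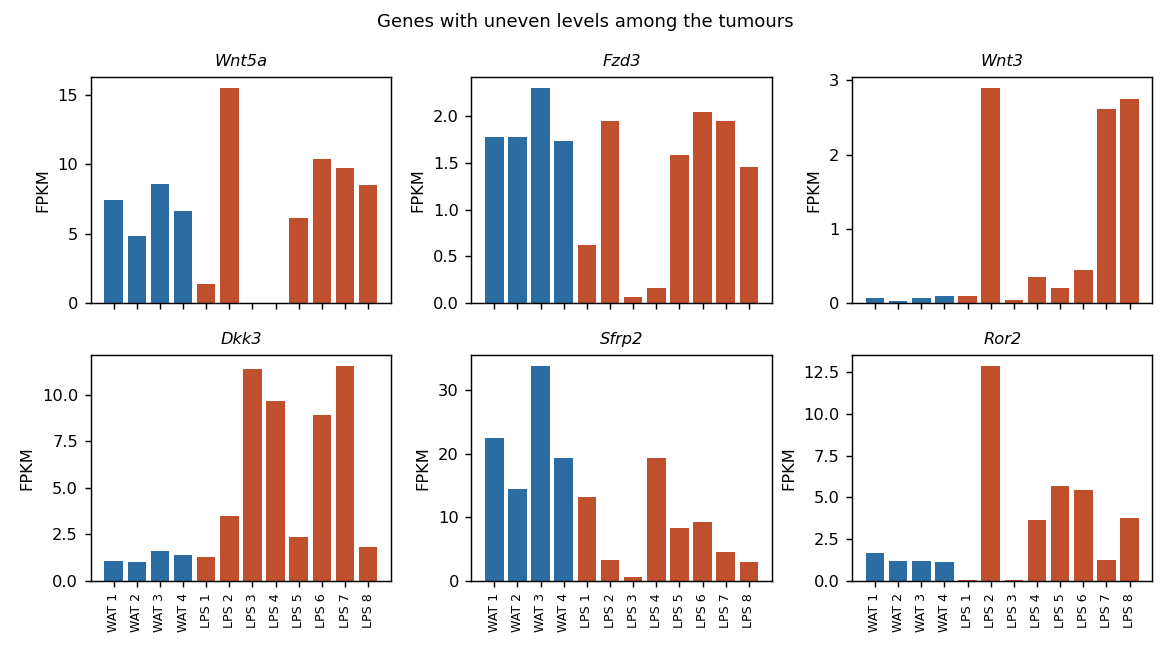
FPKM of 6 genes in each library, with WAT in blue and LPS in red, each panel on its own scale. Wnt5a and Fzd3 are near 0 in LPS 3 and LPS 4, Wnt3 is above 1 FPKM in LPS 2, 7 and 8 only, and Dkk3, Sfrp2 and Ror2 vary among tumours in other orders.

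Among the members, 13 had at least 1 FPKM in 4 or more tumours and gave 78 pairs with a median r of -0.07 over the 8 tumours. After Wnt5a and Fzd3, the highest were Fzd8 with Fzd1 (r = 0.845, rho = 0.714) and Fzd8 with Lrp6 (r = 0.827, rho = 0.643). The lowest were Fzd5 with Lrp6 (r = -0.952, rho = -0.905), Fzd5 with Fzd8 (r = -0.760, rho = -0.667) and Fzd5 with Lrp5 (r = -0.753, rho = -0.524). LPS 5 had the highest Fzd5 (4.07 FPKM) together with the lowest Lrp5, Lrp6 and Fzd8 (15.2, 12.5 and 1.60 FPKM). Without LPS 5 and LPS 3, r was -0.944 for Fzd5 with Lrp6 and 0.05 for Fzd5 with Lrp5, and without LPS 5 and LPS 2 it was 0.122 for Fzd8 with Lrp6, so the relations of Fzd5 with Lrp5 and of Fzd8 with Lrp6 rest on those libraries. These values describe 8 tumours whose genes share a library and its scaling, and were not tested.

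The co-receptors Lrp5 and Lrp6 were expressed in every library and neither was called. Lrp6 stood at 26.3, 27.6, 31.1 and 27.3 FPKM in WAT, against 12.5 to 28.4 FPKM in LPS, with a median of 22.6 FPKM and a difference of -0.39 ± 0.19 (adjusted p = 0.122). Lrp5 (chr19:3584828-3686564, - strand) stood at 21.4, 18.6, 21.5 and 19.8 FPKM in WAT, against 15.2 to 59.1 FPKM in LPS, with a median of 27.4 FPKM and a difference of 0.46 ± 0.26 (adjusted p = 0.175). Lrp6 exceeded Lrp5 in all 4 WAT libraries, and Lrp5 exceeded Lrp6 in the 6 tumours other than LPS 4 and LPS 8. This order was noticed in the values and was not tested.

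The R-spondin genes were low throughout and none passed the filter. Their sum was 0.583 to 1.12 FPKM in WAT, against 0 to 1.64 FPKM in LPS. Rspo1 stood at 0.292 to 0.680 FPKM in WAT and was listed at 0 in 5 tumours, and Rspo2 and Rspo4 reached 0.136 FPKM at most. Rspo3 was 0.263 to 0.515 FPKM in WAT, 7 tumours had 0 to 0.213 FPKM, and LPS 1 was the only library of the 12 with an R-spondin above 1 FPKM (Rspo3, 1.23 FPKM).

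Most antagonists of the SFRP family were lower in the tumours, while Dkk3 was higher. Sfrp4 (chr13:19623175-19632821, + strand) stood at 6.53, 3.41, 8.51 and 4.61 FPKM in WAT. In LPS it was 0 to 0.853 FPKM in 7 tumours and 2.24 FPKM in LPS 5, with a median of 0.0417 FPKM, so the groups did not overlap. The difference was -2.29 ± 0.33 (adjusted p = 7.61e-05), a mean of 5.76 ± 2.23 FPKM (SD, n = 4) against 0.454 ± 0.783 FPKM (SD, n = 8). Sfrp5 stood at 1.85, 1.76, 2.39 and 3.14 FPKM in WAT, against 0 to 0.164 FPKM in LPS, with a median of 0.0372 FPKM. It was listed at 0 in LPS 3, 6 and 7, no tumour came near WAT, and the difference was -1.64 ± 0.12 (adjusted p = 2.41e-07). As for Wnt11 and Wnt2, the filter had built a difference in.

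Sfrp2 (chr3:83766321-83789956, + strand) was the most abundant antagonist in WAT and varied among the tumours. It stood at 22.6, 14.4, 33.9 and 19.3 FPKM in WAT and at 13.2, 3.32, 0.568, 19.3, 8.35, 9.29, 4.47 and 2.91 FPKM in LPS 1 to 8. LPS 4 lay inside the WAT range and LPS 3 was lowest. The difference was -1.75 ± 0.56 (adjusted p = 0.0221), but it was not called without WAT 1 (adjusted p = 0.0526), without WAT 3 (0.0745) or in the exact permutation test (0.0509).

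Sfrp1 followed the others in 7 of the 8 tumours. It stood at 2.11, 2.05, 2.70 and 2.26 FPKM in WAT, at 0.263 to 1.33 FPKM in 7 tumours and at 7.81 FPKM in LPS 5, above every WAT library. It was not called over all libraries (-0.67 ± 0.42, adjusted p = 0.211) and was called without LPS 5 (-0.97, adjusted p = 0.000555). The latter call rests on leaving out the tumour that lay above WAT, and Sfrp1 passed the filter only with WAT. LPS 5 was the tumour with the highest sum of fibroblast and progenitor markers, 345 FPKM, and had the highest Sfrp1, Sfrp4, Dkk2, Wnt2, Wnt9a and Frzb among tumours. Col1a1 alone made 299.6 FPKM of that sum. Of the others in it, Dcn and Pi16 were highest in LPS 5, Lum in LPS 8 (9.89 FPKM) and Dpp4 in LPS 7 (2.31 FPKM). LPS 5 also had the highest levels of the adipocyte markers Cfd, Adipoq and Cidec among tumours (27.2, 4.26 and 1.76 FPKM). Pparg and Plin1 were highest in LPS 3 and LPS 1 (94.2 and 32.2 FPKM). Lymphatic endothelial markers (4 of 4 found) too had their highest tumour sum in LPS 5, 17.4 FPKM. Of these, Lyve1 and Pdpn were highest in LPS 5 (5.49 and 3.15 FPKM), and Flt4 and Prox1 in LPS 4 (9.75 and 0.422 FPKM). The part of any of these cell types in these levels was not tested.

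Dkk3 (chr7:112116019-112159057, - strand), a divergent Dickkopf protein not known to block LRP receptors in the classical way, was the one member called higher. It stood at 1.08, 1.00, 1.57 and 1.36 FPKM in WAT and at 1.29, 3.49, 11.4, 9.70, 2.34, 8.92, 11.6 and 1.83 FPKM in LPS 1 to 8. LPS 3, 4, 6 and 7 were highest, at 8.92 to 11.6 FPKM, and LPS 1 lay inside the WAT range. The difference was 1.41 ± 0.48 (adjusted p = 0.0287), with means of 1.25 ± 0.263 FPKM (SD, n = 4) and 6.32 ± 4.49 FPKM (SD, n = 8), 5.04-fold apart. It was not called without WAT 1, 2, 3 or 4 (adjusted p = 0.0683, 0.0703, 0.0524 and 0.0595) or in the exact permutation test (0.0509).

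Dkk2 (chr3:132085292-132180293, + strand), a binder of LRP6, stood at 1.60, 1.14, 1.21 and 1.86 FPKM in WAT, against 0.114 to 1.13 FPKM in LPS, with a median of 0.278 FPKM. LPS 5 and LPS 6, at 1.13 and 1.11 FPKM, reached almost to WAT 2. The difference was -0.78 ± 0.20 (adjusted p = 0.00736), which was not called under quantile normalization (-0.43, adjusted p = 0.108) or without WAT 1 and WAT 4 together (-0.62, adjusted p = 0.121). Dkk1, the classical inhibitor of LRP5 and LRP6, was listed at 0 in 3 WAT libraries, at 0.0268 FPKM in WAT 3 and at 0 to 0.354 FPKM in LPS, highest in LPS 4. Dkk4 was listed at 0 in all WAT libraries and reached 0.111 FPKM in LPS 4. Wif1 stood at 0.185 to 0.283 FPKM in WAT and was listed at 0 in 6 tumours, with 0.115 FPKM at most. Frzb stood at 1.28 and 1.16 FPKM in WAT 1 and WAT 4, at 0.195 and 0.409 FPKM in WAT 2 and WAT 3, and at 0.0619 to 0.894 FPKM in LPS.

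Summed over the 10 antagonists, WAT gave 24.3 to 51.0 FPKM and LPS 6.61 to 30.4 FPKM. Sfrp2 was the largest part in all WAT libraries, at 56.9 to 66.5% of the sum, and in 5 tumours. Dkk3 was the largest in LPS 2, 3 and 7, where it made 41.8, 88.8 and 62.5%.

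Axin2, a scaffold of the beta-catenin destruction complex that is itself induced by beta-catenin, was lower in every tumour. It stood at 7.67, 4.54, 5.37 and 12.0 FPKM in WAT and at 1.18, 0.965, 0.455, 0.449, 1.30, 0.244, 1.68 and 0.711 FPKM in LPS 1 to 8. The lowest WAT library was above the highest tumour, and the means of 7.41 ± 3.36 FPKM (SD, n = 4) and 0.872 ± 0.493 FPKM (SD, n = 8) were 8.49-fold apart. The difference was -2.13 ± 0.26 (adjusted p = 1.72e-05). WAT 1 and WAT 4, the highest for Axin2 and Frzb, also had the highest sums of skeletal muscle markers (4 of 5 found), 963 and 842.5 FPKM, against 3.29 and 121 FPKM in WAT 2 and WAT 3. The same 2 libraries had the highest WAT sums of mesothelial and bladder markers (5 of 5 found), 3.04 and 3.755 FPKM, against 0.9325 and 0.7 FPKM. Of these markers, Lrrn4 stood at 0.7 to 1.06 FPKM in all 4 WAT libraries. The part of these tissues in the levels of Axin2 and Frzb was not tested. Without WAT 1 and WAT 4 the difference in Axin2 was -1.71 (adjusted p = 0.000902).

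Age within the tumours was examined as a slope per month over the 8 LPS libraries. None of the 13 members tested was called in limma (adjusted p = 1.00 for each), and 0 of 13 had an unadjusted p below 0.05. Over all 13280 rows 0 were called, and 1.72% had an unadjusted p below 0.05. The steepest slopes were those of Wnt5a (-0.87 ± 0.43 per month, log2 scale) and Sfrp2 (0.57 ± 0.33 per month). With 8 animals of 9 to 12 months, slopes of this size did not pass the test.

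A further 65 genes of the pathway were listed by role, and 53 of them were tested as rows of their own. In LPS 17 were called higher, 14 were called lower and 22 were not called, with a median of 0.21. Of all rows tested, 18.9% were called higher and 27.0% lower, and 14 of 53 is close to the latter share. The counts by role below have the same background. Of the 14 genes called lower, 6 (Lef1, Lgr6, Rnf43, Nkd1, Celsr1 and Celsr2) passed the filter through WAT alone, since no tumour reached 1 FPKM, and Wisp1 passed through LPS alone, so a difference in these was built in. Tcf7, Apcdd1, Trabd2b and Prickle1 reached 1 FPKM in fewer than 4 tumours, so they too passed only with WAT, which favoured lower levels in LPS. Apc2, Pygo1, Nkd2 and Dact3 reached it in fewer than 4 WAT libraries, so they passed through LPS. In this list both directions occurred in 7 of the 8 roles.

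Of the genes for release of ligands, Wls was higher by 1.94 ± 0.18 (adjusted p = 1.55e-06), at 14.9 to 18.6 FPKM in WAT, against 46.9 to 87.5 FPKM in LPS. Trabd2b, a protease that inactivates Wnt proteins, was lower (-1.80 ± 0.18, adjusted p = 4.22e-06), and Porcn, the acyltransferase of Wnt proteins, was not called (-0.17, adjusted p = 0.643). So the carrier stood higher in every tumour while most ligand transcripts stood lower. Of 4 tested genes for R-spondin receptors and Frizzled turnover, 3 were called lower, Lgr6 and Rnf43 with a difference built in by the filter: Lgr6 (-1.69 ± 0.21, adjusted p = 2.76e-05), Lgr4 (-0.92 ± 0.23, adjusted p = 0.00600) and Rnf43 (-1.03, from 1.42 to 1.63 FPKM in WAT to 0 to 0.519 FPKM in LPS). Lgr4 was not called without WAT 1 and WAT 4 together (adjusted p = 0.0719). Znrf3, which with Rnf43 removes Frizzled proteins from the membrane, was just outside (-0.61, adjusted p = 0.0547), and was called without LPS 1, 3 or 4 (adjusted p = 0.0448, 0.0375 and 0.0266).

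Among other receptors, 1 of 7 was called higher and 2 lower. Ptk7, a co-receptor in planar cell polarity, was higher by 2.73 ± 0.21 (adjusted p = 2.50e-07), at 1.89 to 2.76 FPKM in WAT, against 12.7 to 29.2 FPKM in LPS. Gpc3, a glypican, was lower (-1.95 ± 0.73, adjusted p = 0.0432), but was not called in 15 of 28 other settings. Among these were no filter on low values (adjusted p = 0.0678), scaling to the FPKM sum (0.0697), pseudocounts of 0.1 and 0.5 (0.0688 and 0.0532) and the exact permutation test (0.0544). It was also not called without WAT 1, 2, 3 or 4 (adjusted p = 0.0846, 0.0704, 0.102 and 0.0893) or LPS 4, 5 or 6 (0.0619, 0.0691 and 0.0713). Ryk, which also binds Wnt5a, was not called (0.21, adjusted p = 0.278). Ror1 was not called (0.58, adjusted p = 0.118), but was called higher without LPS 3 (adjusted p = 0.0138) and with quantile normalization (0.0167). Of the other extracellular antagonists, Kremen1, a partner of Dickkopf proteins, was higher (1.14 ± 0.21, adjusted p = 0.000544), and Apcdd1 was lower (-3.26 ± 0.37, adjusted p = 9.94e-06), at 13.2 to 23.6 FPKM in WAT, against 0.0634 to 2.92 FPKM in LPS.

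In the cytoplasm, 4 of 11 genes were called higher and 1 lower. Ctnnb1, which encodes beta-catenin, stood at 130 to 140.5 FPKM in WAT, against 162 to 303 FPKM in LPS, with no overlap and a difference of 0.77 ± 0.18 (adjusted p = 0.00322). Btrc, the ubiquitin ligase subunit for beta-catenin, was higher (0.94 ± 0.18, adjusted p = 0.000996) and Dvl1, a relay from Frizzled, was lower (-0.55 ± 0.16, adjusted p = 0.0109), though Dvl1 was not called without WAT 1 and WAT 4 together (adjusted p = 0.0590). Gsk3b, the kinase of the complex, was not called (0.26, adjusted p = 0.129). It was called higher in 6 of 28 other settings, among them without LPS 5 (adjusted p = 0.0111), with quantile normalization (0.00764) and with median-of-ratios scaling (0.0312). In the nucleus, Lef1 and Tcf7 were the 2 genes called lower of 9 tested. Lef1 stood at 17.99, 27.5, 19.2 and 15.9 FPKM in WAT, against 0.0544 to 0.767 FPKM in LPS (-3.96 ± 0.18, adjusted p = 2.10e-09), a difference that the filter had built in. Tcf7 stood at 15.1 to 26.9 FPKM in WAT, against 0.533 to 1.53 FPKM in LPS (-3.32 ± 0.19, adjusted p = 1.98e-08).

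Both factors are also made by T cells. Lef1 and Tcf7 were highest in WAT 2, the library with the highest sum of T and B lymphocyte markers (7 of 7 found), 143 FPKM against 74.0 to 85.1 FPKM in the other WAT libraries. The tumours summed to 2.11 to 51.9 FPKM, highest in LPS 7 and LPS 1, and Cd4 alone made 48.2 FPKM of the sum in LPS 7. Among the tumours, Lef1 was highest in LPS 1 (0.767 FPKM) and stood at 0.363 FPKM in LPS 7. Tcf7 was highest in LPS 2 (1.53 FPKM), where the lymphocyte markers summed to 4.00 FPKM. The part of lymphocytes in the difference was not tested. Tcf7l2, the TCF factor widely made outside lymphocytes, was not called (0.38, adjusted p = 0.343). Pygo1, a co-factor of beta-catenin, was higher (0.81 ± 0.18, adjusted p = 0.00233), and Pygo2 was not called (0.24, adjusted p = 0.175). Pygo2 too was called higher in 6 of 28 other settings, among them without LPS 5 (adjusted p = 0.0164), with quantile normalization (0.0177) and with median-of-ratios scaling (0.0482).

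Of 9 further target and feedback genes tested, 5 were called higher and 1 was called lower. Ccnd1, the cyclin D1 gene, was higher (1.93 ± 0.31, adjusted p = 0.000234), at 11.3 to 20.6 FPKM in WAT, against 37.4 to 128 FPKM in LPS. Nkd1, an inhibitor of Dishevelled that beta-catenin induces, stood at 1.01 to 1.96 FPKM in WAT, against 0.121 to 0.391 FPKM in LPS (-1.03 ± 0.12), a difference built in by the filter. Cd44 was not called (-0.01, adjusted p = 0.976), and the sign of its difference turned under 3 of the other settings and without any of 4 single libraries. Of 8 planar cell polarity genes, 4 were called higher and 3 lower, and for Celsr1 and Celsr2 among the latter the filter had built the difference in. In the other 5 the groups did not overlap, 4 with LPS above, against 11.8% of all rows tested, and 1, Prickle1, with LPS below, against 20.9%. Daam2, an effector of Dishevelled, was higher by 3.33 ± 0.32 (adjusted p = 2.46e-06), at 3.88 to 4.44 FPKM in WAT, against 19.5 to 106 FPKM in LPS. Vangl1, Vangl2 and Prickle2 were higher by 2.00, 1.68 and 1.79. Celsr2, a cadherin of this pathway, was lower (-2.10 ± 0.10), at 3.47 to 3.90 FPKM in WAT, against 0.0343 to 0.156 FPKM in LPS, and Daam1 was not called (0.02, adjusted p = 0.947).

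**Figure D4:**
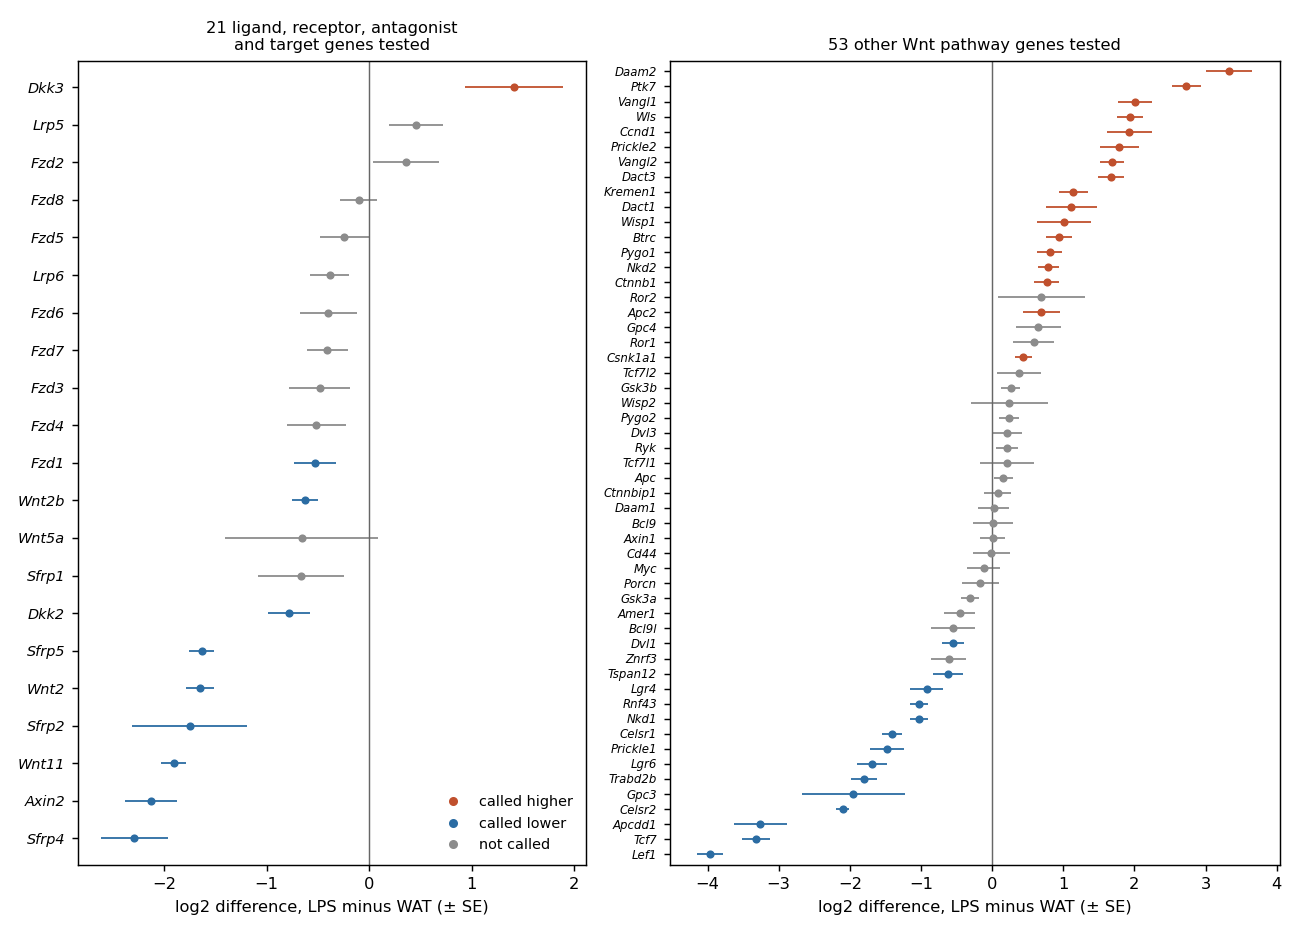
Log2 difference, LPS minus WAT, ± SE from the limma fit, for the 21 tested ligand, receptor, antagonist and target genes (left) and 53 other pathway genes (right), with blue for called lower, red for called higher and grey for not called. On the left 9 genes are blue and Dkk3 alone is red, and on the right 14 are blue and 17 red.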

How the data were processed

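RNA was measured in 12 libraries, 4 WAT and 8 LPS. Per the labels' protocols, ribosomal RNA was removed from the total RNA of frozen samples before stranded library preparation. The deposited table holds FPKM values. The submitters' processing notes name Cufflinks 2.2.1, Cuffdiff 2.2.1, TopHat2 2.1.0, Bowtie2 and Trimmomatic, and the build GRCm38, without saying what each did. Further scaling of FPKM by the authors, and the use of strand in counting, are not given in the sources used here. Of the 46 genes, 13 overlap a gene on the other strand in GENCODE M21 (among those called, Wnt11, Sfrp2 and Axin2), and their reads may not be fully separated. A listed 0 can be a failed estimate. Coordinates are the table's, with starts counted from 1, and all 46 loci overlapped the GENCODE gene of the same name.

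Log2(FPKM + 1) values were fitted by group in limma 3.58.1 (R 4.3.3) with a mean-variance trend, robust empirical Bayes and no covariate. Tests were two-sided, with Benjamini-Hochberg adjustment at 0.05 over the 14821 rows that reached 1 FPKM in 4 or more of the 12 libraries. On this scale a difference understates the change of low genes. Rows joining several names (828) stayed in the fit and were not named, so Dvl2 and Celsr3 were left out. The fit was tested on simulated data. Every matched gene is named. Of the other pathway genes, each role names the called gene with the largest difference in each direction and the most abundant gene not called, plus Lgr4, Ctnnb1, Tcf7l2 and Lef1. Tcf7, Ror1, Ror2, Rnf43, Vangl1, Vangl2 and Prickle2 were chosen after their values were seen. Members and lists were chosen with earlier results of these data known. Depth was estimated from the 5th percentile of non-zero FPKM times length over 2160 genes. No counting interval is given. Markers of 11 cell types (61 genes) were summed per library. Alternatives covered the pseudocount, filters, scaling, variance model, a permutation test, a replicate block, Xist as a covariate and left-out libraries.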

Additional observations from a re-analysis of the deposited data

Results flagged for a closer look

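Levels of the members were searched for a library standing apart from the rest of its group, by the gap to its nearest neighbour over the group's range (Dixon's test, 95% critical value). Only groups whose highest value was at least 1 FPKM were tested. Of 45 groups tested, 6 had such a library. The rate of about 1 in 20 by chance holds for normally distributed values. It cannot be set against this count, because FPKM were used without a log scale. Fzd3 in WAT 3 was 2.30 FPKM, against 1.74 to 1.78 FPKM in the other WAT libraries. The other 5 were in tumours. Fzd9 was 3.19 FPKM in LPS 7, where the rest of the tumours had 0.0590 to 0.270 FPKM. Lrp5 was 59.1 FPKM in LPS 3, against 15.2 to 35.2 FPKM. Rspo3 was 1.23 FPKM in LPS 1, against 0 to 0.213 FPKM. Fzd9 and Rspo3 in LPS were tested only because of the library then flagged, so those flags were close to fixed in advance. LPS 5 stood apart for Sfrp1, at 7.81 FPKM against 0.263 to 1.33 FPKM, and for Sfrp4, at 2.24 FPKM against 0 to 0.853 FPKM. Sfrp4 in LPS was also tested only because of LPS 5, the only tumour at 1 FPKM or more, so its flag was favoured in advance.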

How the results depend on the processing

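The number of members called lower in LPS, 9 as reported, was 18 with no filter on low values, 5 with a filter on a mean of at least 1 FPKM and 2 with at least 5 FPKM in 4 libraries, where fewer genes were tested. It was 7 under quantile normalization and 7 to 9 when single libraries were left out. The number called higher, 1 as reported, was 2 with array quality weights, which added Lrp5, 0 in the exact permutation test, 0 without WAT 1 and WAT 4 together, and 0 or 1 when single libraries were left out (0 without each WAT library). The cause was not tested. The 14 other pathway genes called lower became 7 with at least 5 FPKM in 4 libraries, where fewer were tested, and ranged from 12 to 16 without single libraries, while the 17 called higher ranged from 14 to 19. No member had an age slope under any setting run. The settings without WAT 1 and WAT 4, and without LPS 5 with median-of-ratios scaling, were chosen after the data were seen.

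Quantile normalization moved the median difference of all rows from -0.05 to 0.10 and the share of calls that were lower from 58.8% to 45.2%. It turned the sign of Fzd5 (0.021), Fzd8 (0.11), Porcn (0.062) and Cd44 (0.0745). Cd44 also turned when scaled to the FPKM sum (0.028) and with array quality weights (0.014). Without single libraries Cd44 ranged from -0.11 to 0.10 and Daam1 from -0.089 to 0.11. None of these was called. Quantile normalization made Gsk3b, Pygo2 and Ror1 called, and median-of-ratios scaling made Gsk3b and Pygo2 called. Array quality weights made Fzd7, Lrp5, Lrp6, Sfrp1, Znrf3, Gsk3b, Pygo2 and Ror1 called.

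Replicate numbers are not said to pair WAT and LPS animals. Deviations of libraries with the same number correlated at -0.02, 0.02, 0.09 and 0.03. WAT 3 correlated best with LPS 3, and WAT 1, 2 and 4 correlated best with LPS 8, 5 and 8. Such values from fat and tumours cannot show whether the numbers pair animals. With the number as a replicate block, 8 members were called lower and 1 higher, and 18 other pathway genes were called higher and 12 lower. Sfrp2, Fzd1 and Gpc3 were then not called (adjusted p = 0.109, 0.0803 and 0.0829), with Gpc3 at -0.82 in place of -1.95, and Sfrp1, Gsk3b and Pygo2 were called (0.00430, 0.0444 and 0.0412). The block leaves out tumours whose number has no WAT partner from the comparison within numbers. Depth limits the genes below about 0.1 FPKM, where a few fragments set the level.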
